A study of Mus musculus with 18 samples.

Results

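The effect of targeting Nat10 was set side by side in 2 settings, cultured MCA205 cells and libraries labelled TC1 tumour. The comparison used 12 of the 18 RNA-seq libraries of the series, namely 3 wild-type (WT) and 3 sgNAT10 libraries of each kind. MCA205 cells come from a mouse fibrosarcoma raised with methylcholanthrene. The labels call TC1 a mouse fibrosarcoma too, although TC1 usually names lung epithelial cells carrying papillomavirus oncogenes. Each tumour library is labelled as tissue grown from WT or sgNAT10 TC1 cells implanted under the skin and harvested on day 8, so it holds host cells as well as tumour cells. The labels give no mouse strain or age, no clone, and do not say whether each library is its own culture or animal, so p-values reflect library-to-library spread that may be technical. Any other difference between the WT and sgNAT10 cell stocks, or a single clone behind all 3 sgNAT10 libraries, cannot be told apart from an effect of the guide. The series title links NAT10 in tumour cells to type I interferon and names MYC, CDK2 and DNMT1 as the path between them.

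NAT10 is the enzyme that acetylates cytidine in RNA, and it also serves ribosomal RNA maturation. Interferons bind cell-surface receptors whose kinases activate transcription factors. Type I interferon acts mainly on the interferon-stimulated response element (ISRE) of its target genes, and interferon-gamma on the gamma-activated site (GAS). Their target genes encode antiviral enzymes, guanylate-binding proteins, immunity-related GTPases, chemokines, and the proteasome subunits, transporters and class I molecules that present peptides to T cells. Cells also start the response themselves when sensors of misplaced nucleic acid are engaged, and loss of DNA methylation is one known route to such nucleic acid.

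Libraries held 52430163 to 78501790 estimated counts, and the 10 most abundant genes took 4.70% to 6.10% of each. Levels are given as FPKM summed over the transcripts of a gene. The tumour label was checked against transcripts that separate the 2 cultured lines, with a rule chosen after the data were seen. Of 41 genes at 10 FPKM or more in all 6 TC1 cell libraries and at most 1/20 of that in every MCA205 library, 18 were also at most 1/20 of that level in all 6 labelled tumours. These 18 include 10 intestinal defensins. Others of the 41, such as Alb, Ahsg, Fga, Gc and, named below, Trf, encode plasma proteins made by liver. The 8 liver markers used below summed to between 677 and 1187 FPKM in WT TC1 cells and between 936 and 1201 FPKM in sgNAT10 TC1 cells. Another 6 of the 41 were above 1/20 of their TC1 cell level in all 6 labelled tumours. Among these Trf, which encodes transferrin, lay between 20.2 and 76.4 FPKM there, Basp1, a membrane-associated protein gene, between 9.62 and 14.9 FPKM, and Nid1, which encodes the basement membrane protein nidogen, between 3.88 and 13.2 FPKM. Dlk1, an imprinted membrane protein, had a median of 322 FPKM in TC1 cells, was 0 in every MCA205 library and lay between 0.229 and 1.13 FPKM in the labelled tumours. Stag3, a meiotic cohesin subunit, had a median of 55.6 FPKM in TC1 cells and at most 0.197 FPKM in the labelled tumours. Rbm46, a germ cell RNA-binding protein, had a median of 24.7 FPKM in TC1 cells and was 0 in all 6 labelled tumours.

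The opposite set, high in MCA205 cells and low in TC1 cells, held 4 genes, and all 4 were present in every labelled tumour. Rps21, a ribosomal protein gene, ranged from 318.9 to 483 FPKM in MCA205 cells, from 322 to 1029 FPKM in the labelled tumours and from 0.971 to 1.81 FPKM in TC1 cells. The class I gene H2-K1 ranged from 428 to 1056 FPKM, from 1710.0 to 2738 FPKM and from 1.21 to 9.07 FPKM in the same order. Host cells also make the products of Rps21 and H2-K1. By these values the libraries labelled TC1 tumour hold little or none of 18 of the 41 transcripts that set the TC1 cells of the series apart from MCA205 cells, and why was not tested. The tables were normalised separately, so levels set across them here carry no test. These libraries are called the labelled tumours in what follows.

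**Figure D1:**
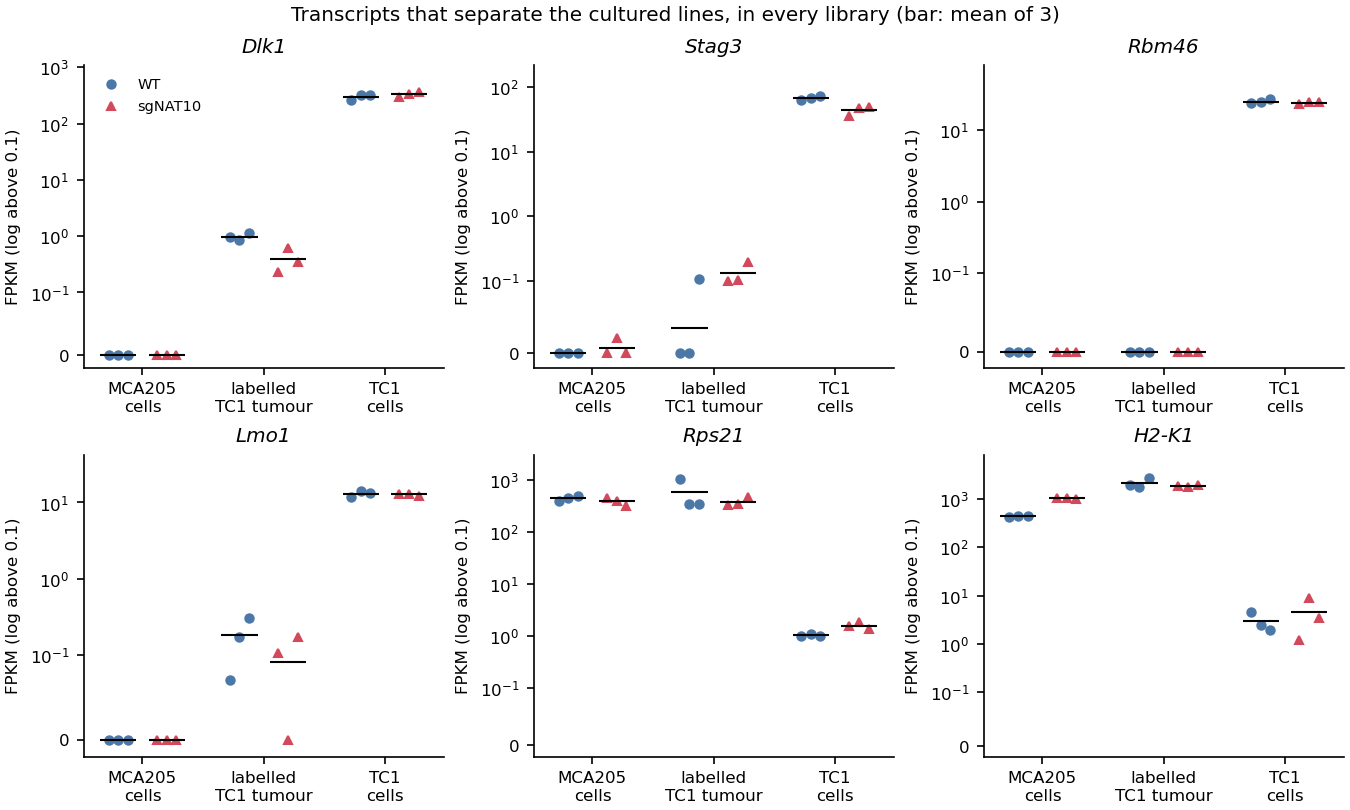
FPKM (logarithmic above 0.1) of 6 genes in each library of MCA205 cells, labelled tumours and TC1 cells, with WT as circles, sgNAT10 as triangles and bars for the mean of 3 libraries. Dlk1, Stag3, Rbm46 and Lmo1 are high in TC1 cells alone, and Rps21 and H2-K1 are low in TC1 cells alone.

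Nat10 itself (chromosome 2, 103721256 to 103761270, minus strand; coordinates here are GRCm38, which is mm10) was called in neither setting. It stood at 14.2, 12.5 and 13.8 FPKM in the wild-type MCA205 cells and 13.2, 13.6 and 13.6 FPKM in the sgNAT10 MCA205 cells, and at 14.8, 16.2 and 15.3 FPKM in the wild-type labelled tumours and 12.3, 16.1 and 16.3 FPKM in the sgNAT10 ones. The groups overlap in both settings, and the log2 changes were 0.00 ± 0.06 (SE, adjusted p = 0.984) and -0.22 ± 0.15 (SE, adjusted p = 0.336). Frame-breaking edits can leave transcript levels as they were, and these values therefore check no label. Some libraries stand apart in transcripts of other tissues. Summed over 8 liver markers, the MCA205 cells held 0.660, 74.4 and 29.2 FPKM in WT 1 to 3 and 26.3, 0.766 and 30.4 FPKM in sgNAT10 1 to 3, and 10 intestine markers followed the same libraries. The labelled tumours held 1.40, 46.4 and 190.5 FPKM of the liver markers in WT and 455, 503 and 480.0 FPKM in sgNAT10. Keratinocyte markers summed to 182 FPKM in tumour sgNAT10 3, to 19.2 and 1.37 FPKM in sgNAT10 1 and 2, and to at most 9.87 FPKM in WT tumours. They were at 41.4 FPKM in MCA205 WT 2 and at most 1.26 FPKM in the other MCA205 libraries. Neutrophil markers summed to 114 FPKM in tumour WT 1 and to at most 44.3 FPKM in the other labelled tumours. Without MCA205 WT 1 and sgNAT10 2, the pair lowest in liver and intestine markers, 484 genes were called higher in both settings and 690 lower in both, against 518 and 820 with them.

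In MCA205 cells 3841 of 18101 tested genes were higher in sgNAT10 (21.2%) and 3514 lower (19.4%), where a gene is called at an adjusted p under 0.05. In the labelled tumours 1473 of 19244 genes were higher (7.65%) and 1870 lower (9.72%). Of 17157 genes tested in both settings, 518 were higher in both (3.02%) and 820 were lower in both (4.78%). Another 332 genes were higher in MCA205 cells and lower in the labelled tumours (1.94%), and 112 showed the reverse (0.653%). Groups of 3 did not overlap in FPKM for 52.6% of tested genes in MCA205 cells and for 40.4% in the labelled tumours, the background for every statement on overlap. Of the 1782 genes called in both settings, 75.1% moved in the same direction. The 518 shared rises are 13.5% of the MCA205 rises and 35.2% of the tumour rises, and the 820 shared falls are 23.3% of the MCA205 falls and 43.9% of the tumour falls. Shared rises were large, with median log2 changes of 1.22 in MCA205 cells and 1.06 in the labelled tumours, and 234 of them passed 2-fold in both. Shared falls were smaller, with medians of -0.39 and -0.77, and 90 passed 2-fold in both.

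The difference between the effects, MCA205 minus labelled tumours, was tested directly over the 12 libraries and called 4402 of 20421 genes (21.6%). In 2832 genes the MCA205 effect was the higher one (13.9%), and in 1570 the lower one (7.69%). These 4402 include 924 genes called in both settings, 2077 called in MCA205 cells alone, 876 called in the labelled tumours alone and 525 called in neither. Of the 518 shared rises, 166 also differed in size, 124 of them with the larger rise in MCA205 cells. Of the 820 shared falls, 314 differed, 280 of them with the deeper fall in the labelled tumours. Both sets were picked by calls in the same libraries. Spread was wider in the labelled tumours, so small changes there were less often called. The medians of these sets and the way they split by size therefore depend in part on the picking. All 332 and all 112 genes with opposite calls passed the test of the difference. They were picked by opposite calls in the same libraries, so this outcome was nearly bound to follow and adds no support.

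Counts that rest on the labelled tumours depend strongly on single libraries. Tumour calls went from 1473 higher and 1870 lower to 437 and 643 without WT 2, to 388 and 587 without sgNAT10 1, to 234 and 321 without sgNAT10 2, and to 414 and 492 without sgNAT10 3. Shared rises went from 518 to 191, 192, 96 and 197 in the same order, and shared falls from 820 to 338, 298, 167 and 250. Rises in MCA205 cells with falls in the labelled tumours went from 332 to 106, 106, 63 and 86, and the reverse from 112 to 25, 24, 14 and 25. Differences lower in MCA205 cells went from 1570 to 1041 and 1042 without MCA205 sgNAT10 1 and 2, and to 1021 without tumour sgNAT10 2. The share that moved in the same direction lay between 72.8% and 80.2% whichever of the 12 libraries was left out. With library size alone in place of TMM scaling, the median log2 change over all genes in the labelled tumours moved from 0.02 to 0.13, and 55.2% rather than 44.1% of tumour calls were rises. Rises also outnumbered falls there under limma-trend on log2(FPKM + 1), with 1506 and 1313, on log2(FPKM + 0.1), with 1309 and 1240, and with a 2-fold minimum, with 964 and 548.

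**Figure D2:**
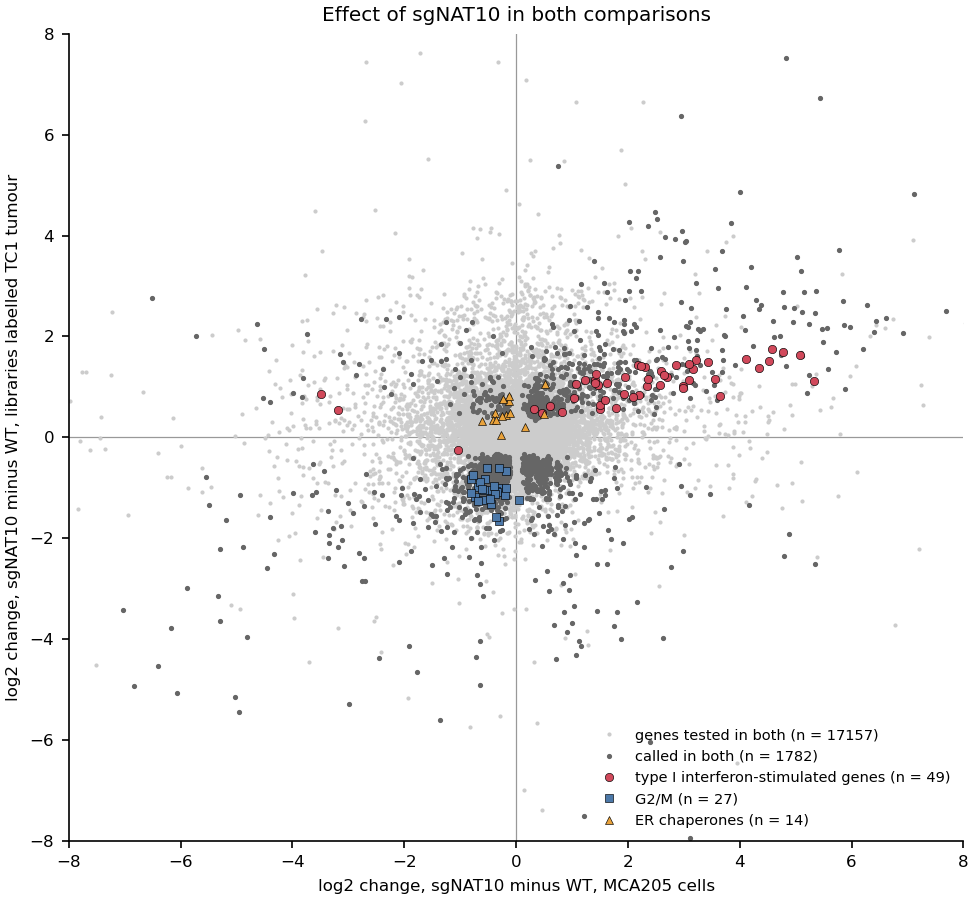
Each point is 1 of 17157 genes, with the log2 change of sgNAT10 against WT in MCA205 cells on the horizontal axis and in the labelled tumours on the vertical axis, both drawn from -8 to 8. Type I interferon-stimulated genes (circles) lie mostly at the upper right, G2/M genes (squares) at the lower left, and most ER chaperones (triangles) at the upper left.

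The 10 named genes that rose most in both settings, ranked by the smaller of the 2 changes, were Tgtp1, Ifi206, Tgtp2, Gbp6, Trim30d, Trim12a, Slfn4, Oas2, Iigp1 and Gbp2. They come from families known for induction by interferon. Several have near-identical relatives (Tgtp1 and Tgtp2, and the Gbp, Ifi200, Slfn, Trim12 and Trim30 families), so the split of reads among them is uncertain. Promoters of 4 shared rises are shown because their windows hold the ISRE core, GAAA then any 2 bases then GAAA, on either strand (capitals). Each runs 5′ to 3′ along the gene from 250 bases before to 50 bases after its start, from RefSeq on GRCm38.p6. They are Tgtp1 (chr11:48992197-48992496, minus strand, core 77 bases before the start), Ifi206 (chr1:173491269-173491568, minus strand, 40 bases), Gbp2 (chr3:142620413-142620712, plus strand, 59 bases) and Ifit3 (chr19:34583279-34583578, plus strand, 156 and 122 bases).
Tgtp1: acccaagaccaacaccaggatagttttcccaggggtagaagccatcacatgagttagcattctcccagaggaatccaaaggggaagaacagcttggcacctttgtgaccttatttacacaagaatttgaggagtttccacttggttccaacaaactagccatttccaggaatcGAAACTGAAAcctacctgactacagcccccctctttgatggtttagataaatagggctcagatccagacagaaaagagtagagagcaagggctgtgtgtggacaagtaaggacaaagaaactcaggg
Ifi206: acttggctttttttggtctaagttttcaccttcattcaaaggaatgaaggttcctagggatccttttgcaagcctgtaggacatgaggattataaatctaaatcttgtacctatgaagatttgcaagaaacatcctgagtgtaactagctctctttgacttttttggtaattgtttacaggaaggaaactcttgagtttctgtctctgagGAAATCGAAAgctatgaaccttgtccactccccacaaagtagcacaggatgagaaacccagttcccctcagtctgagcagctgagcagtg
Gbp2: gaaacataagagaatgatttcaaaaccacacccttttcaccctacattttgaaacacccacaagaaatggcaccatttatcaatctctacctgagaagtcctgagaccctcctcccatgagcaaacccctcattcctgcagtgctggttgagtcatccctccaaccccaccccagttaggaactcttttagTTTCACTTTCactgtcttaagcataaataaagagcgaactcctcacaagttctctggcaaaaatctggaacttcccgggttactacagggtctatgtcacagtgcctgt
Ifit3: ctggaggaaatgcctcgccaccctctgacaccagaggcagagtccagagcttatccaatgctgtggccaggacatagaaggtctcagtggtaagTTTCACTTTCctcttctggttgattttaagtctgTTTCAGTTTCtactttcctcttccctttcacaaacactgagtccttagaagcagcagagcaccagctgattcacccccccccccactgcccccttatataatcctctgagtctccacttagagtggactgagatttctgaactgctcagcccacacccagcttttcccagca

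Of 517 symbols among the shared rises, 365 matched a RefSeq promoter, with 465 windows of 300 bases. The ISRE core lay in 71 of these windows (15.3%), against 458 of 14623 windows (3.13%) of all genes tested in both settings. It lay in 3.44% of all 32851 windows in the table, in 2.63% of windows of the shared falls, in 3% of windows of genes that rose in MCA205 cells without a tumour call, and in 4.9% of those that rose in the labelled tumours without a MCA205 call. The GAS core TTCNNNGAA, which reads the same on both strands, lay in 12% of windows of the shared rises, 6.93% of those of all genes tested in both and 4.99% of those of the shared falls. Among named shared rises, the windows of Slfn4 and Xaf1 hold no ISRE core. A match shows that the letters are present, not that a factor binds there.

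Among 49 tested type I interferon-stimulated genes, 46 rose and 2 fell in MCA205 cells, 42 rose in the labelled tumours, and 41 rose in both, with median log2 changes of 2.23 and 1.11. The medians over all tested genes were -0.03 and 0.02. By the test of the difference the MCA205 effect was the higher one for 32 of the 49 and the lower one for 3, Cmpk2, Ifih1 and Ifi27. With the dispersion estimated over all 18 libraries these counts were 9 and 3. Ifit3, which encodes a partner of viral RNA-binding IFIT proteins (chromosome 19, 34583531 to 34588731, plus strand), stood at 6.65, 6.86 and 5.36 FPKM in the wild-type MCA205 cells and 142, 147 and 144 FPKM in the sgNAT10 MCA205 cells. Ifit3 stood at 100, 121 and 195 FPKM in the wild-type labelled tumours and 426, 456 and 376 FPKM in the sgNAT10 ones. No sgNAT10 library overlapped its WT group, and the WT tumours already lay near the level of the sgNAT10 MCA205 cells. The log2 changes were 4.52 ± 0.09 (SE, adjusted p = 3.92e-07) and 1.51 ± 0.21 (SE, adjusted p = 0.00732), and they differed by 3.02 ± 0.24 (SE, adjusted p = 2.56e-05).

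Rsad2, the antiviral enzyme viperin, showed the same order. It was at 2.23, 2.46 and 1.93 FPKM in the wild-type MCA205 cells and 25.8, 25.3 and 26.3 FPKM in the sgNAT10 MCA205 cells, and at 18.4, 19.4 and 27.1 FPKM in the wild-type labelled tumours and 52.9, 52.7 and 50 FPKM in the sgNAT10 ones. Groups were apart in both, and the rises of 3.55 and 1.16 on the log2 scale differed by 2.40 ± 0.15 (SE, adjusted p = 7.02e-06). Isg20, an RNA exonuclease, rose in both settings. Its levels were 15.6, 17.2 and 15.4 FPKM in the wild-type MCA205 cells and 33.3, 34 and 33.7 FPKM in the sgNAT10 MCA205 cells, and 24.9, 30.4 and 31.2 FPKM in the wild-type labelled tumours and 64.6, 70.6 and 60.7 FPKM in the sgNAT10 ones. The log2 changes were 1.07 ± 0.06 (SE, adjusted p = 1.89e-05) and 1.06 ± 0.09 (SE, adjusted p = 0.00243), with a difference of 0.01 ± 0.09 (SE, adjusted p = 0.942). Xaf1, an interferon-inducible pro-apoptotic factor, changed by 2.65 and 1.23 (adjusted p = 2.45e-05 and 0.00419).

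Oas2, an oligoadenylate synthetase that activates RNase L, and Ifi209, of the Ifi200 family of DNA-binding proteins, were low in WT MCA205 cells. Oas2 stood at 1.69, 1.63 and 1.65 FPKM in the wild-type MCA205 cells and 35.4, 37.1 and 38.6 FPKM in the sgNAT10 MCA205 cells. Oas2 was at 9.40, 17.3 and 36.3 FPKM in the wild-type labelled tumours and 73.3, 81.6 and 68.2 FPKM in the sgNAT10 ones, with the highest WT library well under the lowest sgNAT10 library. Oas2 changed by 4.58 ± 0.05 (SE, adjusted p = 1e-07) and 1.76 ± 0.39 (SE, adjusted p = 0.0254) on the log2 scale. Ifi209 rose from 0.282, 0.322 and 0.281 FPKM to 11, 13 and 12.1 FPKM in MCA205 cells, a log2 change of 5.33 ± 0.09 (SE, adjusted p = 3.6e-07). Its tumour change was 1.11 ± 0.19 (SE, adjusted p = 0.0127). Cmpk2, a mitochondrial nucleotide kinase, was 1 of the 2 genes of its list called lower in MCA205 cells. It fell in MCA205 cells, from 0.141, 1.13 and 0.168 FPKM to 0.0303, 0.0465 and 0.0385 FPKM, and rose in the labelled tumours, from 7.32, 8.92 and 15.2 FPKM to 20.8, 21.6 and 19.7 FPKM. Its log2 changes were -3.48 ± 0.99 (SE, adjusted p = 0.0287) and 0.86 ± 0.21 (SE, adjusted p = 0.0319). Levels in MCA205 cells were close to 0 apart from WT 2, and the call there was lost without WT 2 or any sgNAT10 library (-3.71 to -1.71), as the tumour call was without WT 1, WT 2 or any sgNAT10 library (0.72 to 0.88), with no filter on low counts (0.86) or with the dispersion over all 18 libraries (0.91).

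Among 26 tested interferon-gamma-induced genes, 19 rose in MCA205 cells, 23 in the labelled tumours and 18 in both, with medians of 2.54 and 1.51. By the test of the difference the MCA205 effect was the higher one for 8 of the 26 and the lower one for 1, Serping1, with a median difference of 0.65. Under limma-trend on log2(FPKM + 1) the counts were 4 and 5 and the median difference was -0.16, so the direction turned. The count of 8 was 5 with library size alone or without MCA205 WT 1 and sgNAT10 2, and 2 with the dispersion over all 18 libraries. It was 12 without tumour WT 1, and 5 without tumour WT 2, tumour WT 3, tumour sgNAT10 2 or 3, MCA205 WT 3 or any MCA205 sgNAT10 library. Gbp2, a guanylate-binding protein (chromosome 3, 142620602 to 142638008, plus strand), was at 1.08, 2.90 and 2.27 FPKM in the wild-type MCA205 cells and 18.8, 18.7 and 20.6 FPKM in the sgNAT10 MCA205 cells. It was at 228, 404 and 446 FPKM in the wild-type labelled tumours and 1630.0, 1136 and 1051 FPKM in the sgNAT10 ones. The labelled tumours thus held far more Gbp2 than the cultured cells in either genotype, and the groups did not overlap in either setting. Gbp2 changed by 3.22 ± 0.32 (SE, adjusted p = 0.000302) and 1.74 ± 0.26 (SE, adjusted p = 0.00859). Tgtp1, an immunity-related GTPase (chromosome 11, 48985327 to 48994172, minus strand), was at 0.732, 1.70 and 1.30 FPKM in the wild-type MCA205 cells and 10.1, 10.5 and 10 FPKM in the sgNAT10 MCA205 cells, and at 52.6, 92.9 and 122 FPKM in the wild-type labelled tumours and 560.0, 417 and 368 FPKM in the sgNAT10 ones. With its relative Tgtp2 it is uncertain how reads divide, and Tgtp2 gave log2 changes of 2.57 and 2.13 (adjusted p = 0.00041 and 0.00633) against 3.05 and 2.20 for Tgtp1 (adjusted p = 0.000177 and 0.00523).

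Cd274, which encodes the checkpoint ligand PD-L1, rose in both settings. It was at 0.453, 0.653 and 0.574 FPKM in the wild-type MCA205 cells and 1.83, 1.48 and 1.63 FPKM in the sgNAT10 MCA205 cells, and at 10.2, 15.1 and 16.4 FPKM in the wild-type labelled tumours and 50.4, 34.6 and 33.8 FPKM in the sgNAT10 ones. Cd274 changed by 1.56 ± 0.20 (SE, adjusted p = 0.000904) and 1.41 ± 0.19 (SE, adjusted p = 0.00672), and their difference was 0.15 ± 0.26 (SE, adjusted p = 0.74). Cxcl10, a chemokine for CXCR3-bearing T cells, rose in both as well. It was at 72.2, 61.5 and 62.3 FPKM in the wild-type MCA205 cells and 744, 762 and 750.2 FPKM in the sgNAT10 MCA205 cells, and at 298, 381 and 599 FPKM in the wild-type labelled tumours and 1017, 869 and 859 FPKM in the sgNAT10 ones. The groups did not overlap, and the log2 changes were 3.54 ± 0.07 (SE, adjusted p = 4.71e-07) and 1.04 ± 0.22 (SE, adjusted p = 0.0214). In bulk tissue a change in the number of cells of a type and a change of RNA per cell cannot be told apart, and this holds for every tumour value here.

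The tumour part of these lists leans on the same libraries. Members of the type I list called higher in the labelled tumours went from 42 to 12 without WT 2 and to 15, 7 and 17 without sgNAT10 1, 2 and 3, while the list's median lay between 0.99 and 1.32 whichever library was left out. Members of the interferon-gamma list went from 23 to 6 without WT 2 and to 8 and 6 without sgNAT10 1 and 2, with 16 left without sgNAT10 3. Ifit3, Rsad2, Isg20, Xaf1, Gbp2, Tgtp1, Tgtp2 and Cd274 passed in the labelled tumours with any 1 library left out. Oas2, Ifi209 and Cxcl10 did not pass without WT 2 or without sgNAT10 1, 2 or 3, with log2 changes of 1.64 to 1.80, 1.0 to 1.14 and 0.96 to 1.09 in those fits. The difference of the Gbp2 effects, 1.48 ± 0.44 (SE, adjusted p = 0.034), was lost in 8 of 12 such fits, at 1.36 to 1.56. Those fits left out MCA205 WT 3, each MCA205 sgNAT10 library, tumour WT 2 and 3, or tumour sgNAT10 2 and 3. It was also lost with library size alone (1.39), under limma-trend on log2(FPKM + 1) (0.92), with the dispersion over all 18 libraries (1.45) and without MCA205 WT 1 and sgNAT10 2 together (1.21). With the dispersion over all 18 libraries 22 of the type I list and 18 of the interferon-gamma list were called higher in the labelled tumours. In that fit Oas2, Rsad2, Xaf1 and Cxcl10 had tumour changes of 1.80, 1.21, 1.28 and 1.09 that were not called, nor were their differences between the settings (2.79, 2.35, 1.39 and 2.46).

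Among 21 tested genes that sense nucleic acid or relay the signal, 11 rose in MCA205 cells (52.4%, against 21.2% of all tested genes). Another 4 fell there, a share near the 19.4% of all tested genes. In the labelled tumours 4 rose, a larger share than the 7.65% of all tested genes. The 2 that fell there (9.52%) were near the 9.72% of all tested genes. The tumour rises were 1 without any one sgNAT10 library and 2 without WT 2, and 8 without WT 3. Trim56, a ubiquitin ligase that promotes STING signalling, rose in both. It was at 4.73, 4.54 and 4.55 FPKM in the wild-type MCA205 cells and 8.68, 9.12 and 8.73 FPKM in the sgNAT10 MCA205 cells, and at 3.0, 4.65 and 6.08 FPKM in the wild-type labelled tumours and 14.8, 14.3 and 11.7 FPKM in the sgNAT10 ones, with log2 changes of 0.94 ± 0.04 (SE, adjusted p = 7.65e-06) and 1.48 ± 0.19 (SE, adjusted p = 0.00622). Sting1, the adaptor that relays cyclic dinucleotides from cGAS, fell in MCA205 cells from 16.4, 16.3 and 17.4 FPKM to 9.80, 8.69 and 9.21 FPKM. Tumour levels were 27.9, 35.7 and 59 FPKM in WT and 79.6, 72.2 and 64.4 FPKM in sgNAT10, with no overlap but no call. The log2 changes were -0.82 ± 0.05 (SE, adjusted p = 4.96e-05) and 0.70 ± 0.21 (SE, adjusted p = 0.0548), and they differed by -1.52 ± 0.23 (SE, adjusted p = 0.00116).

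Of 23 tested class I presentation genes 18 rose (78.3%, against 21.2% of all tested genes) and 3 fell (13.0%, against 19.4%) in MCA205 cells. In the labelled tumours 6 rose (26.1%, against 7.65%), and 11 had the higher effect in MCA205 cells by the test of the difference. The 6 tumour calls were lost without WT 2 or any sgNAT10 library, were 14 without WT 3, and were 2 with no filter on low counts, 10 with a minimum of 1 CPM or with the dispersion over all 18 libraries, and 11 by DESeq2. Psmb9, an immunoproteasome subunit, rose in both. It was at 3.80, 4.30 and 4.17 FPKM in the wild-type MCA205 cells and 17.7, 17.3 and 16.3 FPKM in the sgNAT10 MCA205 cells, and at 54.5, 45.9 and 63.8 FPKM in the wild-type labelled tumours and 101, 85.8 and 87.6 FPKM in the sgNAT10 ones, with log2 changes of 2.11 ± 0.07 (SE, adjusted p = 3.31e-06) and 0.67 ± 0.14 (SE, adjusted p = 0.0212). The tumour call was lost without WT 2 or any sgNAT10 library, at 0.55 to 0.72. Psmb8, its partner subunit, fell in MCA205 cells, from 2.51, 5.29 and 3.27 FPKM to 1.65, 0.971 and 1.65 FPKM, a log2 change of -1.37 ± 0.34 (SE, adjusted p = 0.0163). Its difference from the tumour change, -1.55 ± 0.40 (SE, adjusted p = 0.0193), was lost without tumour sgNAT10 1 (-1.39). The class I gene H2-Q4, which has close relatives, was at 22.5, 25.8 and 24.7 FPKM in the wild-type MCA205 cells and 70.8, 68.5 and 68.4 FPKM in the sgNAT10 MCA205 cells, and at 107, 105 and 178 FPKM in the wild-type labelled tumours and 107, 95.5 and 109 FPKM in the sgNAT10 ones. The MCA205 rise of 1.62 ± 0.04 (SE, adjusted p = 1.35e-06) stood against -0.43 ± 0.20 (SE, adjusted p = 0.165) in the labelled tumours, where the groups overlapped.

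Of 30 inflammatory cytokine and chemokine genes, 12 rose (40.0%) and 4 fell (13.3%) in MCA205 cells, where 21.2% and 19.4% of all tested genes did so. Of 29 tested in the labelled tumours 6 rose (20.7%, against 7.65%) and 1 fell (3.45%, against 9.72%). The 6 became 1 or 2 without WT 2 or any sgNAT10 library, with no filter on low counts or with the dispersion over all 18 libraries. Ccl5, a T cell chemokine, was at 6.32, 8.75 and 7.81 FPKM in the wild-type MCA205 cells and 143, 130.1 and 115 FPKM in the sgNAT10 MCA205 cells. Tumour levels were 23.7, 19.3 and 30.5 FPKM and 33.1, 33 and 38.9 FPKM. The MCA205 log2 change was 4.08 ± 0.15 (SE, adjusted p = 3.99e-06) and the tumour one 0.41 ± 0.19 (SE, adjusted p = 0.169), and they differed by 3.68 ± 0.26 (SE, adjusted p = 1.34e-05). Vcam1, a leukocyte adhesion molecule, moved in opposite directions, from 61, 56.7 and 54.5 FPKM down to 32.5, 34.6 and 33.4 FPKM in MCA205 cells, and from 80.7, 104 and 116 FPKM up to 149.9, 166 and 144 FPKM in the labelled tumours. Its log2 changes were -0.77 ± 0.05 (SE, adjusted p = 4.84e-05) and 0.52 ± 0.13 (SE, adjusted p = 0.0326), the second not called without WT 2 or any sgNAT10 library (0.48 to 0.55), with no filter on low counts (0.52) or with the dispersion over all 18 libraries (0.58).

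**Figure D3:**
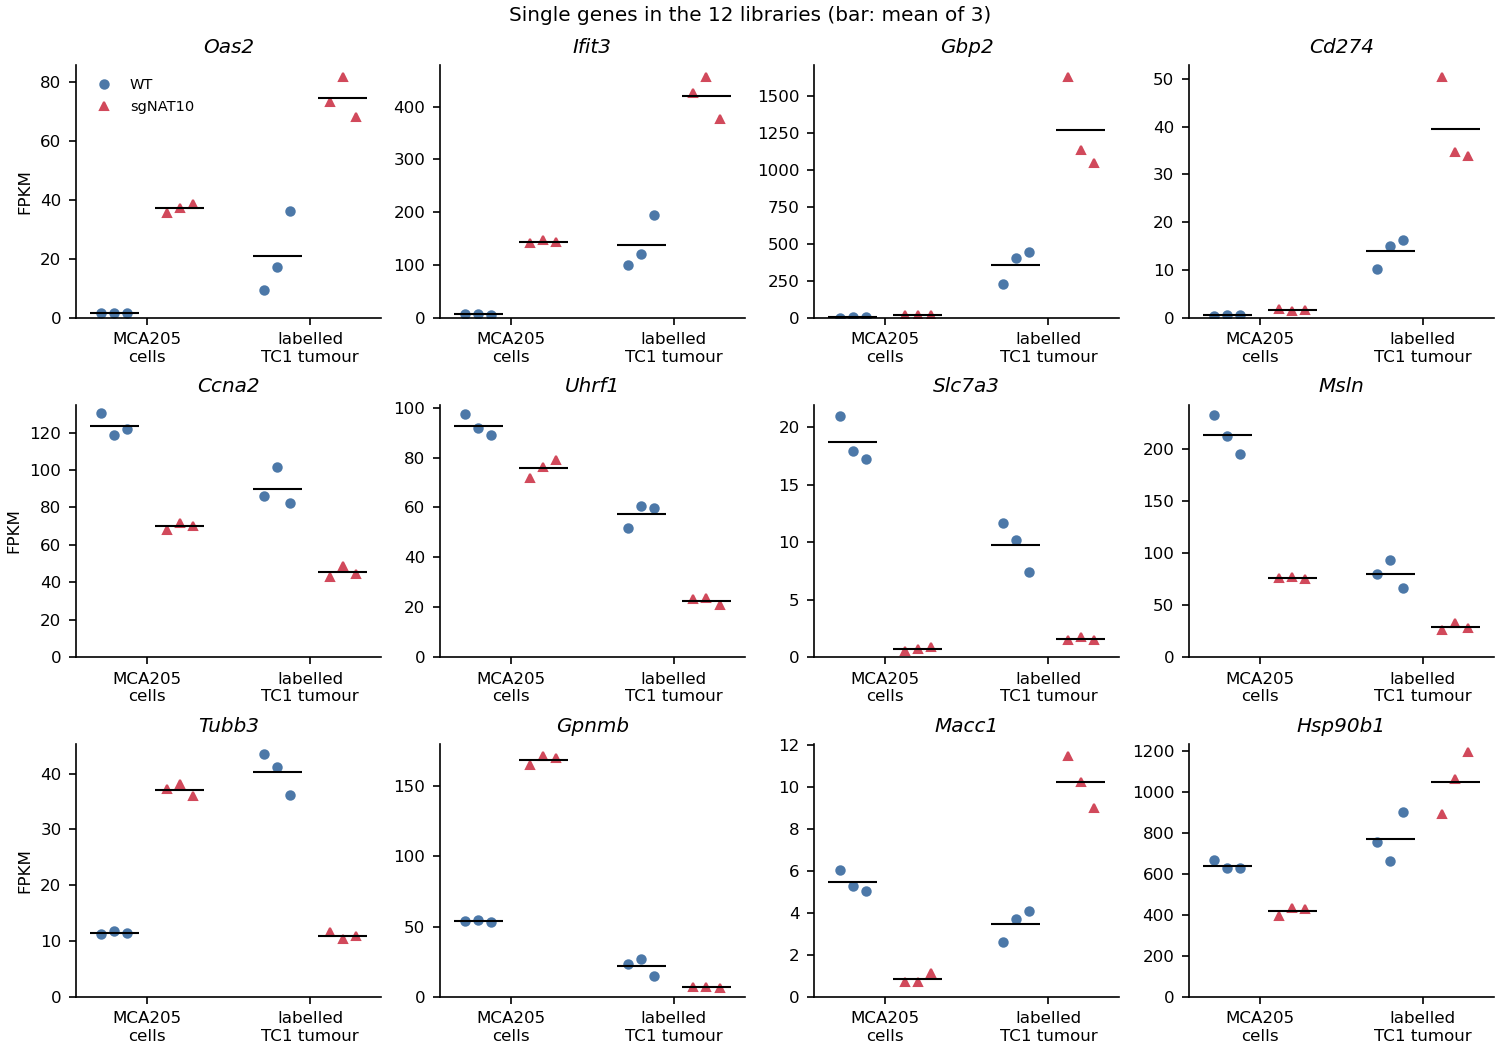
FPKM of 12 genes in each of the 12 libraries, with WT as circles, sgNAT10 as triangles and bars for the mean of 3 libraries. The interferon-induced genes of the top row rise in both settings, the middle row falls in both, and Tubb3, Gpnmb and Macc1 move in opposite directions.

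Genes of G2/M fell in both settings. Of 27 G2/M genes, 26 fell in MCA205 cells, all 27 fell in the labelled tumours and 26 fell in both, with median log2 changes of -0.46 and -1.05. The fall was deeper in the labelled tumours for 17 of them by the test of the difference. Ccna2, which encodes cyclin A2, was at 130.5, 119 and 122 FPKM in the wild-type MCA205 cells and 67.8, 71.6 and 70.3 FPKM in the sgNAT10 MCA205 cells, and at 86.3, 101 and 82.7 FPKM in the wild-type labelled tumours and 43, 48.6 and 44.7 FPKM in the sgNAT10 ones. No groups overlapped. Ccna2 changed by -0.81 ± 0.05 (SE, adjusted p = 3.08e-05) and -1.11 ± 0.13 (SE, adjusted p = 0.005), and their difference of 0.30 ± 0.13 (SE, adjusted p = 0.13) was not called. Plk1, a mitotic kinase, changed by -0.45 ± 0.03 (SE, adjusted p = 4.71e-05) and -1.32 ± 0.12 (SE, adjusted p = 0.00289), with a difference of 0.88 ± 0.12 (SE, adjusted p = 0.000688). Aurka, another mitotic kinase, was the one member without a call in MCA205 cells, at 112, 101 and 109 FPKM in the wild-type MCA205 cells and 104, 110.0 and 117 FPKM in the sgNAT10 MCA205 cells. Aurka stood at 54.5, 63.6 and 51.4 FPKM in the wild-type labelled tumours and 28.3, 25.2 and 23.5 FPKM in the sgNAT10 ones, a log2 change of -1.25 ± 0.13 (SE, adjusted p = 0.00385).

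Genes of G1/S and DNA replication differed between the settings. Of 33 tested, 6 rose (18.2%, near the 21.2% of all tested genes) and 13 fell (39.4%, against 19.4%) in MCA205 cells. In the labelled tumours 27 fell (81.8%, against 9.72%), and the effect was lower there for 29 by the test of the difference. The medians were -0.12 and -1.01. Mcm3, a subunit of the replicative helicase, was at 123, 109 and 109 FPKM in the wild-type MCA205 cells and 86.3, 86.8 and 87.5 FPKM in the sgNAT10 MCA205 cells, and at 81.6, 76.5 and 66.3 FPKM in the wild-type labelled tumours and 24.9, 28.4 and 26.2 FPKM in the sgNAT10 ones. Both groups were apart in both settings, with log2 changes of -0.38 ± 0.06 (SE, adjusted p = 0.00172) and -1.60 ± 0.15 (SE, adjusted p = 0.00307). Cdc6, a licensing factor, was not called in MCA205 cells, at 10.2, 11.9 and 10.1 FPKM in WT and 9.92, 10.2 and 9.81 FPKM in sgNAT10. It fell from 7.80, 10.2 and 10.2 FPKM to 3.72, 3.95 and 4.01 FPKM in the labelled tumours, a log2 change of -1.35 ± 0.11 (SE, adjusted p = 0.00202). The 27 tumour falls of this list became 17 without sgNAT10 2, and the 27 of the G2/M list became 19.

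The genes of the series title did not move alike. Cdk2, the kinase of the S phase cyclins (chromosome 10, 128697939 to 128705031, minus strand), was at 74.2, 56 and 63.6 FPKM in the wild-type MCA205 cells and 16.9, 18.4 and 19 FPKM in the sgNAT10 MCA205 cells. Cdk2 was at 19.9, 21.1 and 22.1 FPKM in the wild-type labelled tumours and 15.3, 19.2 and 16.9 FPKM in the sgNAT10 ones. The WT MCA205 cells stood out from all other libraries, and groups did not overlap in either setting. The log2 changes were -1.85 ± 0.11 (SE, adjusted p = 4.02e-05) and -0.41 ± 0.11 (SE, adjusted p = 0.0451), and they differed by -1.42 ± 0.15 (SE, adjusted p = 0.000167). Dnmt1, the maintenance DNA methyltransferase (chromosome 9, 20907209 to 20959888, minus strand), was at 116, 122 and 104 FPKM in the wild-type MCA205 cells and 45.9, 48.9 and 50.9 FPKM in the sgNAT10 MCA205 cells. It was at 18.1, 30.1 and 24.8 FPKM in the wild-type labelled tumours and 18.8, 18.1 and 14.6 FPKM in the sgNAT10 ones, where sgNAT10 1 lay above WT 1. Its log2 changes were -1.25 ± 0.06 (SE, adjusted p = 1.09e-05) and -0.60 ± 0.17 (SE, adjusted p = 0.0489), with a difference of -0.64 ± 0.19 (SE, adjusted p = 0.0348).

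The tumour call of Cdk2 was lost without WT 1, WT 2 or any sgNAT10 library, at -0.48 to -0.34. That of Dnmt1 was lost without WT 2, WT 3 or any sgNAT10 library, at -0.68 to -0.44, and its difference was lost without MCA205 WT 1 and sgNAT10 2 together (-0.62) and in 8 of 12 fits with 1 library left out, all but those without MCA205 WT 3, tumour WT 1, tumour WT 2 or tumour sgNAT10 3. Both tumour calls were also lost under RLE factors, at -0.41 for Cdk2 (adjusted p = 0.0513) and -0.60 for Dnmt1 (adjusted p = 0.0507). With library size alone the values were -0.29 (adjusted p = 0.12) and -0.50 (adjusted p = 0.118), and no call was made with no filter on low counts or under either limma setting. Calls by edgeR with a minimum of 1 CPM or the dispersion over all 18 libraries, and by DESeq2, were kept. Myc, the transcription factor, was at 84, 87.4 and 100.5 FPKM in the wild-type MCA205 cells and 52.8, 60.6 and 63.6 FPKM in the sgNAT10 MCA205 cells, and at 61.2, 61.5 and 48.6 FPKM in the wild-type labelled tumours and 52.2, 52.3 and 66.2 FPKM in the sgNAT10 ones. It fell in MCA205 cells by 0.61 ± 0.09 (SE, adjusted p = 0.00212) on the log2 scale, and the tumour change of -0.17 ± 0.18 (SE, adjusted p = 0.539) was not called. Uhrf1, which recruits DNMT1 to newly copied DNA, was at 97.3, 92 and 89.1 FPKM in the wild-type MCA205 cells and 71.9, 76.3 and 78.9 FPKM in the sgNAT10 MCA205 cells, and at 51.6, 60.5 and 59.6 FPKM in the wild-type labelled tumours and 23.4, 23.7 and 20.8 FPKM in the sgNAT10 ones. Its changes of -0.29 ± 0.04 (SE, adjusted p = 0.00209) and -1.48 ± 0.10 (SE, adjusted p = 0.00195) differed by 1.20 ± 0.09 (SE, adjusted p = 1.73e-05), deeper in the labelled tumours, whereas that of Dnmt1 was deeper in MCA205 cells.

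Of 17 DNA methylation genes, 3 rose and 9 fell in MCA205 cells, and 1 rose and 5 fell in the labelled tumours. Of 32 MYC target genes, 5 rose and 11 fell in MCA205 cells and 16 fell in the labelled tumours, with medians of -0.07 and -0.62. The 11 became 1 with the dispersion over all 18 libraries. The 16 tumour falls became 6 without WT 2 and 3, 0 and 3 without sgNAT10 1, 2 and 3, and 25 without WT 3, 28 by DESeq2 and 27 with the dispersion over all 18 libraries. Odc1, the rate-limiting enzyme of polyamine synthesis, moved in opposite directions. It was at 249.5, 222 and 231 FPKM in the wild-type MCA205 cells and 439.5, 459 and 448 FPKM in the sgNAT10 MCA205 cells, and at 208, 171 and 139 FPKM in the wild-type labelled tumours and 83.5, 90.8 and 92.5 FPKM in the sgNAT10 ones, with log2 changes of 0.95 ± 0.05 (SE, adjusted p = 3e-05) and -1.10 ± 0.21 (SE, adjusted p = 0.0166). The tumour call was lost without WT 2 or any sgNAT10 library, at -1.15 to -1.06.

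The 10 largest shared falls by the same ranking included Slc7a3, Arxes2, Gstt1, Stra6, Wnt10b, Ddah2, Aqp1, Msln and Ankrd1. Slc7a3, a transporter of cationic amino acids (chromosome X, 101079210 to 101086020, minus strand), was at 20.9, 18 and 17.3 FPKM in the wild-type MCA205 cells and 0.577, 0.758 and 0.898 FPKM in the sgNAT10 MCA205 cells. It was at 11.7, 10.2 and 7.37 FPKM in the wild-type labelled tumours and 1.48, 1.76 and 1.51 FPKM in the sgNAT10 ones. The sgNAT10 libraries were far under WT in both settings, with log2 changes of -4.46 ± 0.16 (SE, adjusted p = 4.11e-06) and -2.59 ± 0.26 (SE, adjusted p = 0.00342) and a deeper fall in MCA205 cells by 1.86 ± 0.32 (SE, adjusted p = 0.00219). Stra6, the cell-surface receptor for retinol-binding protein, was at 9.74, 8.81 and 9.64 FPKM in the wild-type MCA205 cells and 1.12, 1.01 and 1.14 FPKM in the sgNAT10 MCA205 cells, and at 19.3, 23.4 and 24.9 FPKM in the wild-type labelled tumours and 6.81, 9.08 and 6.48 FPKM in the sgNAT10 ones. Stra6 changed by -3.13 ± 0.09 (SE, adjusted p = 1.73e-06) and -1.75 ± 0.12 (SE, adjusted p = 0.00195). Msln, which encodes the surface glycoprotein mesothelin, fell in both settings. It was at 232, 212 and 195 FPKM in the wild-type MCA205 cells and 76.5, 76.9 and 75.1 FPKM in the sgNAT10 MCA205 cells, and at 80.3, 93.3 and 66.5 FPKM in the wild-type labelled tumours and 25.8, 32.5 and 27.7 FPKM in the sgNAT10 ones, with log2 changes of -1.49 ± 0.07 (SE, adjusted p = 9.65e-06) and -1.57 ± 0.17 (SE, adjusted p = 0.00385) and a difference of 0.09 ± 0.19 (SE, adjusted p = 0.796).

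Wnt10b, a Wnt ligand, fell in both, with changes of -2.16 and -1.55 on the log2 scale (adjusted p = 5.72e-05 and 0.0061), and so did the water channel gene Aqp1, with changes of -1.71 and -1.49 (adjusted p = 0.000136 and 0.00823). Ddah2, of the dimethylargininase family, fell more in the labelled tumours. It went from 11.3, 11 and 11.3 FPKM to 4.06, 3.77 and 4.26 FPKM in MCA205 cells and from 41, 30.7 and 34.5 FPKM to 8.12, 6.96 and 5.62 FPKM in the labelled tumours, a difference of 1.04 ± 0.24 (SE, adjusted p = 0.012). Arxes2 fell in both, with log2 changes of -3.19 and -2.17 (adjusted p = 2.68e-05 and 0.00394). The difference between these, -1.01 ± 0.30 (SE, adjusted p = 0.0333), was lost in 7 of 12 fits with 1 library left out, at -1.05 to -0.75, namely those without any MCA205 WT library, MCA205 sgNAT10 2 or 3, tumour WT 2 or tumour sgNAT10 3. It was also lost under limma-trend on log2(FPKM + 1) (-0.44) and without MCA205 WT 1 and sgNAT10 2 together (-0.91). Ankrd1, a target of the YAP coactivator, changed by -1.43 ± 0.05 (SE, adjusted p = 4.42e-06) and -1.56 ± 0.37 (SE, adjusted p = 0.0304), the tumour call being lost without WT 1, WT 2 or any sgNAT10 library (-1.79 to -1.30) or with no filter on low counts (-1.56).

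Some shared falls were close to complete in MCA205 cells. Snrpn, an imprinted gene, was at 8.29, 8.54 and 6.81 FPKM in the wild-type MCA205 cells and 0.211, 0 and 0.376 FPKM in the sgNAT10 MCA205 cells, and at 3.73, 2.48 and 3.41 FPKM in the wild-type labelled tumours and 0.365, 0.196 and 0.213 FPKM in the sgNAT10 ones, with log2 changes of -5.30 ± 1.03 (SE, adjusted p = 0.00605) and -3.65 ± 0.37 (SE, adjusted p = 0.00344). Gstt1, a glutathione transferase, was at 9.41, 10.7 and 7.92 FPKM in the wild-type MCA205 cells and 0.226, 0 and 0.724 FPKM in the sgNAT10 MCA205 cells, and at 9.77, 10.4 and 16.8 FPKM in the wild-type labelled tumours and 3.73, 1.83 and 3.15 FPKM in the sgNAT10 ones. Both genes were at 0 in MCA205 sgNAT10 2 and detected in sgNAT10 1 and 3. The log2 changes of Gstt1 were -4.89 ± 1.16 (SE, adjusted p = 0.0141) and -2.17 ± 0.32 (SE, adjusted p = 0.00803), and the first was not called without MCA205 sgNAT10 1 (-4.72).

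Among named genes higher in MCA205 cells and lower in the labelled tumours, changes were largest, by the smaller of the 2, for Tubb3, Gpnmb and Galnt18. Tubb3, a tubulin best known from neurons (chromosome 8, 123411424 to 123422015, plus strand), was at 11.3, 11.8 and 11.4 FPKM in the wild-type MCA205 cells and 37.2, 38.1 and 36 FPKM in the sgNAT10 MCA205 cells. Tubb3 was at 43.6, 41.1 and 36.1 FPKM in the wild-type labelled tumours and 11.5, 10.3 and 10.8 FPKM in the sgNAT10 ones. The sgNAT10 MCA205 cells thus lay at the level of the WT tumours, and the sgNAT10 tumours at that of the WT cells. Tubb3 changed by 1.70 ± 0.04 (SE, adjusted p = 9.76e-07) and -2.01 ± 0.16 (SE, adjusted p = 0.00202), a difference of 3.71 ± 0.17 (SE, adjusted p = 9.66e-07). Gpnmb, a transmembrane glycoprotein, was at 53.9, 54.9 and 53.5 FPKM in the wild-type MCA205 cells and 165, 172 and 170.3 FPKM in the sgNAT10 MCA205 cells, and at 23.6, 26.8 and 14.5 FPKM in the wild-type labelled tumours and 6.90, 6.66 and 6.48 FPKM in the sgNAT10 ones. It changed by 1.64 ± 0.03 (SE, adjusted p = 3.6e-07) and -1.83 ± 0.25 (SE, adjusted p = 0.0069). Galnt18, of the family that starts mucin-type glycosylation, changed by 1.45 ± 0.09 (SE, adjusted p = 3.39e-05) and -3.44 ± 0.24 (SE, adjusted p = 0.00195).

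Gfra2, the neurturin receptor, rose in MCA205 cells from 3.91, 3.98 and 3.43 FPKM to 32.5, 33.2 and 32 FPKM and fell in the labelled tumours from 12.7, 18.2 and 15.2 FPKM to 8.26, 7.78 and 6.40 FPKM. Gfra2 changed by 3.11 ± 0.06 (SE, adjusted p = 3.91e-07) and -1.15 ± 0.14 (SE, adjusted p = 0.00489). Xist, the RNA that coats the inactive X chromosome, was at 18.8, 17.9 and 17 FPKM in the wild-type MCA205 cells and 39.9, 41.9 and 42 FPKM in the sgNAT10 MCA205 cells, and at 17.9, 23.1 and 25 FPKM in the wild-type labelled tumours and 4.27, 5.84 and 5.26 FPKM in the sgNAT10 ones. It rose in the cells and fell in the labelled tumours, with log2 changes of 1.21 ± 0.05 (SE, adjusted p = 5.94e-06) and -2.18 ± 0.15 (SE, adjusted p = 0.00195) and a difference of 3.39 ± 0.15 (SE, adjusted p = 9.66e-07). With the dispersion over all 18 libraries the tumour change of Gfra2 (-1.10) and both changes of Xist (1.22 and -2.12) were not called. The labels do not give the sex of the mice.

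In the other direction, Akr1c14, of the aldo-keto reductase family, came first by the same ranking. It was at 5.34, 5.23 and 7.32 FPKM in the wild-type MCA205 cells and 0.797, 0.717 and 1.02 FPKM in the sgNAT10 MCA205 cells, and at 1.45, 2.58 and 6.80 FPKM in the wild-type labelled tumours and 32.4, 17.1 and 9.30 FPKM in the sgNAT10 ones. Its groups did not overlap, and its log2 changes were -2.77 ± 0.19 (SE, adjusted p = 6.63e-05) and 2.35 ± 0.60 (SE, adjusted p = 0.037). The tumour call was lost without WT 1, WT 2 or any sgNAT10 library (1.77 to 2.68) and with no filter on low counts (2.35). Macc1, a gene first described in metastatic colon cancer (chromosome 12, 119314270 to 119469987, plus strand), was at 6.06, 5.26 and 5.03 FPKM in the wild-type MCA205 cells and 0.688, 0.716 and 1.12 FPKM in the sgNAT10 MCA205 cells, and at 2.62, 3.72 and 4.10 FPKM in the wild-type labelled tumours and 11.5, 10.2 and 8.98 FPKM in the sgNAT10 ones. All sgNAT10 cells lay under and all sgNAT10 tumours above their WT groups, with log2 changes of -2.81 ± 0.18 (SE, adjusted p = 4.36e-05) and 1.45 ± 0.11 (SE, adjusted p = 0.00202). Syne4, which encodes a nesprin of the nuclear envelope, changed by -2.87 ± 0.15 (SE, adjusted p = 2.09e-05) and 1.23 ± 0.24 (SE, adjusted p = 0.0179). Il13ra1, a receptor subunit for interleukin 13, fell in MCA205 cells from 6.69, 7.26 and 6.48 FPKM to 0.354, 0 and 0.541 FPKM and rose in the labelled tumours from 13.4, 18.2 and 21.2 FPKM to 39.2, 28.1 and 29.8 FPKM. Its log2 changes were -4.53 ± 1.06 (SE, adjusted p = 0.0132) and 0.78 ± 0.16 (SE, adjusted p = 0.0215), the first lost without MCA205 sgNAT10 1 (-4.72). The tumour calls of Syne4 and Il13ra1 were lost without WT 2 or any sgNAT10 library, at 1.07 to 1.31 and 0.62 to 0.89, and that of Il13ra1 with the dispersion over all 18 libraries (0.83).

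Among genes called in MCA205 cells alone, Prl2c2, a proliferin of the prolactin family whose near-identical relatives share its reads, was at 24.5, 21.5 and 26.6 FPKM in the wild-type MCA205 cells and 1286, 1397 and 1265 FPKM in the sgNAT10 MCA205 cells. It rose by 5.76 ± 0.10 (SE, adjusted p = 3.6e-07) there, and its log2 change in the labelled tumours was -1.15 ± 0.41 (SE, adjusted p = 0.0909). Nppb, the B-type natriuretic peptide, rose from 0.823, 1.69 and 1.32 FPKM to 44.7, 46.3 and 43.2 FPKM, a log2 change of 5.12 ± 0.23 (SE, adjusted p = 1.05e-05) against -1.27 ± 0.60 (SE, adjusted p = 0.179) in the labelled tumours. Gatm, the first enzyme of creatine synthesis, fell from 20.9, 18.3 and 19.7 FPKM to 0.233, 0 and 0.488 FPKM and was at 30.9, 31.4 and 55 FPKM in the wild-type labelled tumours and 39, 32.6 and 31.3 FPKM in the sgNAT10 ones. Its MCA205 change was -6.40 ± 0.80 (SE, adjusted p = 0.00084) and its tumour change -0.31 ± 0.20 (SE, adjusted p = 0.302). Uhrf2, a relative of Uhrf1, was at 24.1, 22.6 and 22.4 FPKM in the wild-type MCA205 cells and 0.537, 0.0130 and 0.625 FPKM in the sgNAT10 MCA205 cells, a log2 change of -5.99 ± 0.75 (SE, adjusted p = 0.000857). It stood at 16.9, 24.7 and 19.7 FPKM in the wild-type labelled tumours and 21.4, 21.6 and 19.3 FPKM in the sgNAT10 ones, with overlapping groups. Cpt1c, a brain-type carnitine palmitoyltransferase, fell from 9.72, 9.19 and 9.50 FPKM to 0.0387, 0.0620 and 0.283 FPKM, a log2 change of -6.13 ± 0.61 (SE, adjusted p = 0.000294).

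Among genes called in the labelled tumours alone, Bmp5, a bone morphogenetic protein, was at 0, 0.0873 and 0.107 FPKM in the wild-type labelled tumours and 9.49, 9.89 and 7.58 FPKM in the sgNAT10 ones. Nxf3, of the nuclear RNA export factor family, was at 0, 0.104 and 0.116 FPKM in the wild-type labelled tumours and 6.70, 9.70 and 8.42 FPKM in the sgNAT10 ones. Both were close to 0 in all WT tumours and in MCA205 cells of either genotype, at up to 0.592 and 0.420 FPKM in the cells, and were present in all 3 sgNAT10 tumours. Their tumour log2 changes were 7.08 ± 0.79 (SE, adjusted p = 0.00418) and 6.66 ± 0.83 (SE, adjusted p = 0.00561). Falls in the labelled tumours alone included Pbk, a mitotic kinase, Mtss1, an actin regulator at membranes, and Sdr39u1, of the short-chain dehydrogenases. Pbk was at 41.8, 45.3 and 35.4 FPKM in the wild-type labelled tumours and 11.9, 13.9 and 13.2 FPKM in the sgNAT10 ones, and in MCA205 cells at 52.6, 49.6 and 50.5 FPKM and 49.2, 51.3 and 49.7 FPKM. The tumour changes were -1.77 ± 0.16 (SE, adjusted p = 0.00238) for Pbk, -1.88 ± 0.19 (SE, adjusted p = 0.00344) for Mtss1 and -2.02 ± 0.20 (SE, adjusted p = 0.00344) for Sdr39u1. None of the 3 was called in MCA205 cells, where their log2 changes were -0.01, 0.05 and 0.08.

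ER chaperones, which fold secreted proteins, differed between the settings. Of 14 tested, 3 rose (21.4%, near the 21.2% of all tested genes) and 9 fell (64.3%, against 19.4%) in MCA205 cells. In the labelled tumours 5 rose (35.7%, against 7.65%). The medians were -0.21 and 0.45, and 8 had the lower effect in MCA205 cells by the test of the difference. With the dispersion over all 18 libraries 1 rose and 2 fell in MCA205 cells and 9 rose in the labelled tumours, and with no filter on low counts none rose there. Without MCA205 WT 1 and sgNAT10 2 together the differences were 3. Hsp90b1 was at 666, 627 and 631 FPKM in the wild-type MCA205 cells and 397, 434 and 428 FPKM in the sgNAT10 MCA205 cells. It was at 758, 661 and 900.5 FPKM in the wild-type labelled tumours and 894, 1062 and 1194 FPKM in the sgNAT10 ones, where sgNAT10 1 lay under WT 3. Its log2 changes were -0.61 ± 0.05 (SE, adjusted p = 0.000138) and 0.33 ± 0.20 (SE, adjusted p = 0.274), and they differed by -0.93 ± 0.20 (SE, adjusted p = 0.00804). Pdia6, a disulfide isomerase, had log2 changes of -0.38 and 0.48 (adjusted p = 0.000256 and 0.0761), a difference of -0.85 ± 0.15 (SE, adjusted p = 0.00319). Herpud1, which serves ER-associated degradation, rose in both, by 0.50 ± 0.05 (SE, adjusted p = 0.000314) and 0.47 ± 0.13 (SE, adjusted p = 0.0463), the second not called with no filter on low counts (0.46). The 5 tumour calls were lost without WT 1, WT 2 or any sgNAT10 library and were 9 without WT 3, and the 8 differences were 5 without MCA205 WT 2 or 3, any MCA205 sgNAT10 library, tumour WT 2 or tumour sgNAT10 3.

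Cholesterol synthesis genes fell widely in MCA205 cells, 19 of 22 (86.4%) with 3 higher (13.6%). In the labelled tumours 2 of 22 fell (9.09%, near the share of all genes), and the medians were -0.58 and -0.21. The 2 tumour calls became 1 without WT 2 and were lost without any one sgNAT10 library, with library size alone or under either limma setting. The shares of all tested genes that rose and fell were 21.2% and 19.4% in MCA205 cells and 7.65% and 9.72% in the labelled tumours. Of 18 ATF4 and amino acid stress genes, 7 rose and 7 fell (38.9% each) in MCA205 cells and 1 rose (5.56%) and 5 fell (27.8%) in the labelled tumours. Of 24 p53 targets, 11 rose (45.8%) and 5 fell (20.8%) in MCA205 cells and 2 rose and 2 fell (8.33% each) in the labelled tumours, so the falls in MCA205 cells and both tumour counts were near the shares of all genes. Of 20 hypoxia and glycolysis genes, 9 fell (45%) and 3 rose (15%) in MCA205 cells, and 2 fell (10%, near the share of all genes) in the labelled tumours. Of 24 oxidative phosphorylation genes, 10 fell (41.7%) and 1 rose (4.17%) in MCA205 cells and 6 fell (25%) in the labelled tumours. These tumour counts rest on single libraries too. Those of ATF4 and oxidative phosphorylation genes became 0 to 2 falls without WT 2 or any sgNAT10 library, and hypoxia falls became 13 without WT 3. With the dispersion over all 18 libraries the MCA205 counts were 1 rise and 1 fall for ATF4 genes, 7 and 3 for p53 targets, 0 and 1 for hypoxia genes, and 5 falls for oxidative phosphorylation genes.

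Matrix genes were mixed, with 14 rises and 9 falls of 34 in MCA205 cells (41.2% and 26.5%, against 21.2% and 19.4% of all tested genes). In the labelled tumours they showed 4 rises and 2 falls of 34 (11.8% and 5.88%, near the 7.65% and 9.72% of all tested genes). The 14 became 6 with the dispersion over all 18 libraries. Col5a2, a fibrillar collagen chain, fell in both. It was at 18.9, 18.2 and 17.7 FPKM in the wild-type MCA205 cells and 2.71, 2.56 and 3.08 FPKM in the sgNAT10 MCA205 cells, and at 26.6, 32.2 and 58.5 FPKM in the wild-type labelled tumours and 18.5, 13.2 and 16.4 FPKM in the sgNAT10 ones, with log2 changes of -2.72 ± 0.07 (SE, adjusted p = 1e-06) and -1.37 ± 0.26 (SE, adjusted p = 0.0163). The tumour call was lost without sgNAT10 1, 2 or 3, at -1.48 to -1.24. Tgfbi, a matrix protein induced by TGF-beta, rose in MCA205 cells from 9.02, 9.69 and 9.43 FPKM to 53.9, 56.1 and 55.1 FPKM and was at 125, 126 and 248 FPKM in the wild-type labelled tumours and 235, 219.7 and 230.4 FPKM in the sgNAT10 ones. Its change was 2.56 ± 0.03 (SE, adjusted p = 2.14e-07) in MCA205 cells and 0.37 ± 0.24 (SE, adjusted p = 0.306) in the labelled tumours, where groups overlapped. Of 15 imprinted genes tested in MCA205 cells 2 rose (13.3%) and 3 fell (20%), and of 18 in the labelled tumours 2 rose and 2 fell (11.1% each), where 21.2% and 19.4% of all genes did so in MCA205 cells. Of germline genes known to be silenced by methylation 3 of 5 rose and 1 fell in MCA205 cells and 1 of 8 rose and 1 fell in the labelled tumours.

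**Figure D4:**
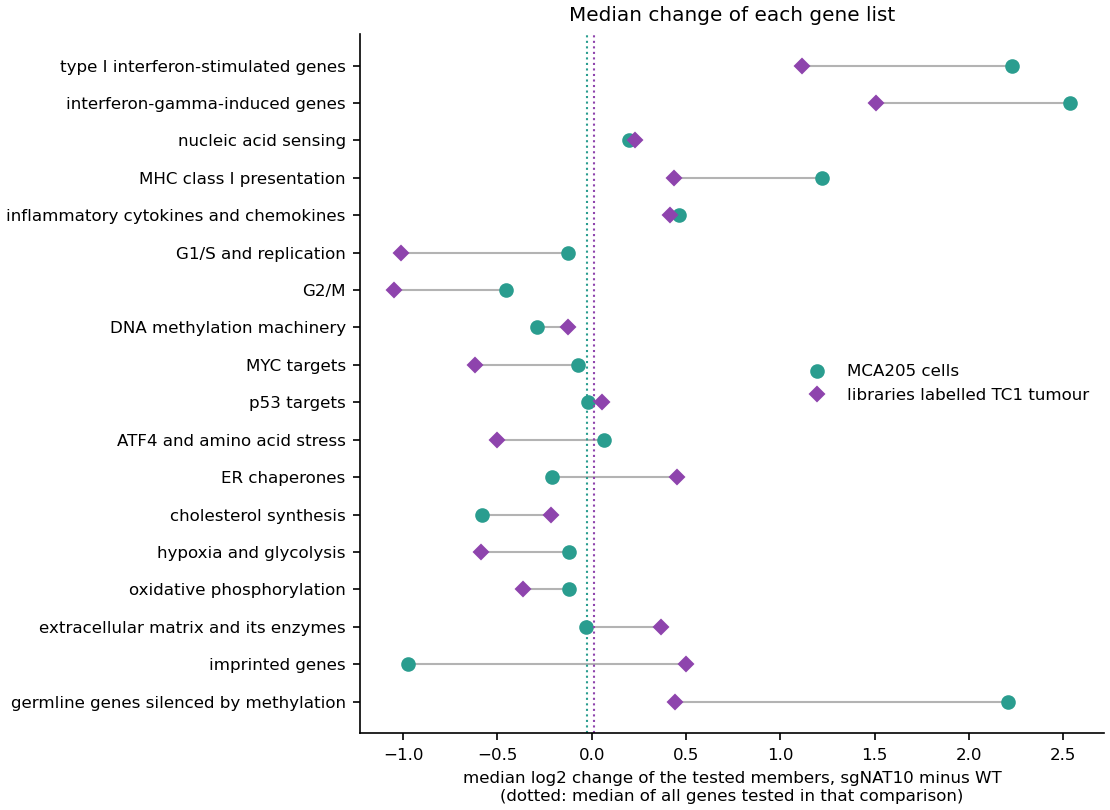
Median log2 change of the tested members of each gene list in MCA205 cells (circles) and in the labelled tumours (diamonds), with dotted lines for the medians over all tested genes (-0.03 and 0.02). Both interferon lists lie to the right in both settings, G2/M lies to the left in both, and ER chaperones lie on either side of the dotted lines.

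Several lists of markers of other cell types differed by genotype in the labelled tumours, where 7.65% of all tested genes rose and 9.72% fell. Skeletal muscle markers summed to between 20.6 and 25.8 FPKM in WT and between 85.9 and 132.5 FPKM in sgNAT10, with 5 of 8 called higher. Among them Acta1, skeletal muscle actin, was at 10.1, 8.82 and 9.97 FPKM in the wild-type labelled tumours and 69.6, 47.4 and 38.4 FPKM in the sgNAT10 ones, a rise not called with the dispersion over all 18 libraries (2.36). In MCA205 cells the list was at 68.2 FPKM in WT 2 and at most 3.09 FPKM in the others, and the difference of the Acta1 effects, -6.17 ± 1.80 (SE, adjusted p = 0.0331), was lost under limma-trend on log2(FPKM + 0.1) (-4.45) and in 10 of 12 fits with 1 library left out (-6.67 to -2.53), all but those without MCA205 WT 1 or 3. Endothelial markers summed to between 39.4 and 53.9 FPKM in WT tumours and between 75.0 and 89.6 FPKM in sgNAT10 tumours, with 7 of 9 higher. Red blood cell markers were lower, between 169.6 and 549 FPKM in WT and between 74.9 and 128 FPKM in sgNAT10, with 4 of 5 called lower. Adipocyte markers summed to between 21.7 and 39.1 FPKM in WT and between 54.8 and 78.15 FPKM in sgNAT10, with 1 of 4 called higher. Of 9 pericyte and smooth muscle markers 2 were called higher and 3 lower. NK and cytotoxic markers summed to 47.4, 50.3 and 156 FPKM in WT and to between 148 and 169 FPKM in sgNAT10, so WT 3 lay within the sgNAT10 range. Of these, 1 of 10 was called higher (10%), near the share of all genes.

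Markers of macrophages and monocytes lay between 1324 and 1843 FPKM in WT tumours and between 1259 and 1424 FPKM in sgNAT10 tumours, with 2 of 13 called lower. T cell markers lay between 12.4 and 30.2 FPKM and between 20.6 and 36.4 FPKM, MHC class II between 352 and 806 FPKM and between 595 and 968 FPKM, and dendritic cell markers between 7.13 and 14.9 FPKM and between 18.2 and 21.9 FPKM. Of these, 0 of 10 T cell, 0 of 6 MHC class II and 0 of 7 dendritic cell markers were called in the labelled tumours. In the cultured MCA205 cells the NK and cytotoxic list was at most 2.31 FPKM in every library, and the T cell list at most 3.25 FPKM. Fibroblast markers summed to between 15.3 and 26.3 FPKM in WT MCA205 cells and between 201 and 208 FPKM in sgNAT10 ones, with 2 of 7 called higher and a median log2 change of -0.07. Dcn, which encodes the matrix proteoglycan decorin, made up most of that sum, at 11, 17.8 and 13.8 FPKM in the wild-type MCA205 cells and 191, 198 and 195 FPKM in the sgNAT10 MCA205 cells, and Pdgfra, a growth factor receptor, was the other gene called (log2 changes of 3.79 and 1.30). The fibroblast list summed to between 185 and 324 FPKM in the WT and between 237 and 313 FPKM in the sgNAT10 labelled tumours, with 3 of 8 called higher, Dpt, Col15a1 and Lum. Genes under 1 FPKM in all 12 cultured libraries, MCA205 and TC1, made up 31.2% of the tumour rises and 2.46% of the tumour falls, against 23.4% of all genes tested in the labelled tumours. They made up 8.49% of the shared rises and 1.1% of the shared falls. The part of such cell-type differences in the tumour results was not tested.

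The cultured TC1 cells, another comparison of the series with its own WT group, give a further readout of the shared genes. Of the 518 shared rises, 481 were tested there, and 120 rose (24.9%) and 114 fell (23.7%), where 15.9% of all tested genes rose and 22% fell (37.9% in either direction). Of the 820 shared falls, 811 were tested, with 180 rises (22.2%) and 263 falls (32.4%). Among the type I list 31 of 50 tested genes rose in TC1 cells and none fell. Of the interferon-gamma list 6 of 26 rose and none fell, with a median of -0.17, and of the class I list 4 of 23 rose and 3 fell. Of the 27 G2/M genes, which fell in the labelled tumours, 11 rose and 2 fell in TC1 cells. Across genes, the log2 changes of MCA205 cells and labelled tumours had a Pearson r of 0.20 and a Spearman rho of 0.18 over 17157 genes, which are not independent replicates. Those of TC1 cells and labelled tumours had an r of -0.06 and a rho of 0.01 over 17377 genes, with 54.3% of 1459 genes called in both moving in the same direction.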

How the data were processed

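Column-purified RNA was sequenced as Illumina libraries (labels' protocols). FastQC, Trim Galore, Bowtie2, featureCounts and mm10 appear, without versions or roles, in the submitters' processing notes. Each deposited table, 1 for each setting, lists FPKM values, which the authors scaled to length and sequencing depth, and estimated counts, per the file headers. As deposited, the estimated counts are whole numbers, so none was rounded. Transcript values were summed per gene, so the split among relatives and overlapping or antisense genes is the authors', and no source used here gives a strand setting. Columns named KO were taken as the libraries labelled sgNAT10.

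Counts of each setting were fitted in edgeR with TMM factors, the default expression filter and quasi-likelihood tests over 6 libraries, and the difference of effects over 12. Adjusted p-values are from these tests, by the Benjamini-Hochberg method over all tested genes, and changes are log2 values ± SE. Each SE was worked back from the test, as the size of the log2 change over the square root of the F statistic. Such an SE is approximate, and least reliable for very small changes and for genes with very few counts. The fit over 12 libraries shares 1 estimate of spread per gene. The SE of a difference can thus lie under that of the tumour change alone, as for Uhrf1. Pairs of libraries within a group gave a chi-square per gene, against sampling noise, of 10.7 to 35.3 in MCA205 cells. In the labelled tumours it was 34.8 to 243. No 2 libraries were alike within sampling noise. Members, lists and tests were chosen with earlier results of these data known. Genes were named by a rule, the largest shared, opposite and single-setting changes with groups not overlapping and a higher mean of at least 5 FPKM, plus up to 4 shared and 2 differing members of each list by p, of which a selection is printed, and some rule-named results are not reported here. Lmo1, Rps21, H2-K1, Dlk1, Stag3, Rbm46, Trf, Basp1, Nid1, Alb, Ahsg, Fga, Gc, Cmpk2, Psmb8, Ifih1, Ifi27, Serping1 and the 5 fibroblast markers were chosen after their values were seen.

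Alternatives were library size alone or RLE factors, dropping the filter or asking for 1 CPM in 3 libraries, a replicate block, limma-trend with pseudocounts of 1 and 0.1 on FPKM, DESeq2, dispersion over 18 libraries, a 2-fold minimum, and libraries left out. The edgeR and DESeq2 steps were tested on simulated counts with 200 changed genes in each comparison. Of edgeR calls, 3.90% in MCA205 cells, 10.1% in the labelled tumours and 3.09% for the difference were unchanged genes. For DESeq2 these shares were 30.9%, 34.4% and 33.5%. In the same order, edgeR recovered 65%, 44% and 28% of 2-fold changes, and DESeq2 77%, 68% and 56%. The simulated spread was taken from edgeR's own estimates, so these shares cannot rank the tools. Changed genes were also far fewer than the calls made in the data, so the shares do not carry over to the data. Software comprised Python 3.11.15 with pandas 2.3.3, numpy 2.4.6 and matplotlib 3.10.9, and R 4.3.3 with DESeq2 1.42.0, limma 3.58.1 and edgeR 4.0.16.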

Additional observations from a re-analysis of the deposited data

Results flagged for a closer look

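The effect of sgNAT10 differed between MCA205 cells and the labelled tumours, by the test of the difference itself, in 2832 genes with the higher effect in MCA205 cells and in 1570 with the lower one. The values here are the MCA205 log2 change minus the tumour log2 change, and the same test picked out every gene given.

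Among interferon-induced genes the differences were 1.75 for Trim30d, 1.48 for Gbp2, 1.97 for Gbp6, 2.82 for Oas2, 2.40 for Rsad2, 1.43 for Xaf1, 3.02 for Ifit3, 4.22 for Ifi209, 2.50 for Cxcl10 and -4.35 for Cmpk2. That of Gbp6, like that of Gbp2, was lost in 8 of 12 fits with 1 library left out (1.62 to 2.01 for Gbp6), those without MCA205 WT 3, any MCA205 sgNAT10 library, tumour WT 2 or 3, or tumour sgNAT10 2 or 3. The Gbp6 difference was also lost with library size alone (1.89) and under limma-trend with pseudocounts of 1 (0.42) and 0.1 (1.65). It was lost too with the dispersion over all 18 libraries (1.94) and without MCA205 WT 1 and sgNAT10 2 together (1.65). The tumour call of Gbp6 was lost without tumour WT 2 or sgNAT10 2 (2.15 to 2.16). For sensing, presentation and inflammation the differences were -1.52 for Sting1, -1.55 for Psmb8, 1.45 for Psmb9, 2.06 for H2-Q4, 3.68 for Ccl5 and -1.29 for Vcam1.

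For cell cycle, title and MYC target genes they were -1.42 for Cdk2, -0.64 for Dnmt1, 1.20 for Uhrf1, 1.23 for Mcm3, 1.36 for Cdc6, 0.88 for Plk1, 1.31 for Aurka, 1.76 for Pbk and 2.06 for Odc1. Among shared falls they were -1.86 for Slc7a3, -1.01 for Arxes2, -1.37 for Stra6, 1.04 for Ddah2 and -1.34 for Col5a2. For genes with opposite calls they were 3.71 for Tubb3, 3.48 for Gpnmb, 4.90 for Galnt18, 4.26 for Gfra2, 3.39 for Xist, -5.12 for Akr1c14, -4.24 for Macc1, -4.09 for Syne4 and -5.34 for Il13ra1.

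Genes called in 1 setting alone gave 6.93 for Prl2c2, 6.40 for Nppb, -6.09 for Gatm, -5.78 for Uhrf2, -6.50 for Cpt1c, -6.89 for Bmp5, -5.56 for Nxf3, -6.17 for Acta1, 2.11 for Sdr39u1 and 1.94 for Mtss1. Genes of the remaining lists gave -0.85 for Pdia6, -0.93 for Hsp90b1 and 2.19 for Tgfbi.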

How the results depend on the processing

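Counts moved with several choices. No named gene that was called in either fit changed direction, but the balance of tumour rises and falls turned, as did the median difference of the interferon-gamma list under limma-trend on log2(FPKM + 1). Library size alone gave 1223 tumour falls. Without a filter there were 870 tumour rises, 528 shared falls and 44 falls in MCA205 cells with tumour rises. DESeq2 gave 2313 tumour rises, and 510 and 234 opposite calls. Limma on log2(FPKM + 1) gave 220 rises in MCA205 cells with tumour falls, and on log2(FPKM + 0.1) it gave 202, with 1240 tumour falls. Dispersion over 18 libraries gave 2137 MCA205 falls, 2443 tumour rises and 3101 tumour falls. Without MCA205 WT 1 and sgNAT10 2 the differences numbered 1750 and 970. With a 2-fold minimum the counts were 1170 and 619 for MCA205 cells, 964 and 548 for the labelled tumours, 1042 and 820 for the difference, 234 shared rises, 90 shared falls, and 47 and 29 opposite calls.

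With single libraries left out, MCA205 rises ranged from 3131 to 3921 and falls from 2840 to 3514, tumour rises from 234 to 2191 and falls from 321 to 2421, differences from 2165 to 3415 and from 1021 to 1840, shared rises from 96 to 636, shared falls from 167 to 996, and opposite calls from 63 to 444 and from 14 to 166. Same-numbered libraries correlated at -0.51, -0.56 and 0.27 in MCA205 cells and at -0.03, 0.01 and -0.07 in the labelled tumours, so the numbers do not pair libraries. As a replicate block they gave 360 tumour rises, 476 tumour falls, 1807 and 832 differences, 161 shared rises, 234 shared falls, and 68 and 13 opposite calls. The cause of these shifts was not tested. Of the gene results under 23 alternatives, 4443 of 4679 stayed on their side of the threshold, 207 lost a call and 29 gained one. Among the first, 59 values of 15 uncalled results changed sign, up to 0.68 in size under an alternative.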

Other observations

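Near-complete falls in MCA205 cells shared a pattern across libraries. The set, chosen after the data were seen, held the 18 called genes, unnamed gene models left out, with a log2 change of -4 or less and a WT mean of at least 5 FPKM. In it sgNAT10 2 was lowest or tied for lowest in 15 and at 0 in 7. The median level of these genes was 0.313% of the WT mean in sgNAT10 2, 2.87% in sgNAT10 1 and 4.31% in sgNAT10 3. Liver and intestine markers were also lowest in sgNAT10 2 of the 3. The part of either in the other was not tested.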
